A study of Mus musculus with 32 samples.

Results

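The 7 genes described here belong to the programme by which cells of the macrophage lineage become osteoclasts: the receptors Tnfrsf11a and Oscar, the integrin subunit Itgb3, the transcription factor Nfatc1, the fusion proteins Dcstamp and Ocstamp, and the enzyme Acp5. They were chosen by gene name, 1 row each among the 45706 genes of the table, with earlier results of the same libraries known. Those results held the value of Acp5 with the miR-7a mimic under vehicle. They also had Acp5 moving in opposite ways with the miR-7a and miR-29a mimics. Differences of Acp5 from scramble with these mimics, and between them, are no support of their own. Levels are therefore given as a description. The adjusted p-values come from a fit of all genes that passed a filter on low counts, and they compare a difference with the spread between libraries. They are not independent evidence for the choice of these genes.

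Osteoclasts are the bone-resorbing giant cells that form when macrophage precursors fuse. RANK, the product of Tnfrsf11a, receives the RANK ligand signal, OSCAR and other receptors add a costimulatory signal through adaptors with an ITAM motif, and both converge on NFATc1, the transcription factor that switches on the fusion and resorption genes. Microglia, the resident macrophages of the brain, come from the same lineage and use many of the same receptors and lysosomal genes.

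RNA was sequenced from BV-2 cells, an immortalised mouse microglial line, in 8 groups of 4 libraries. Cells received a synthetic duplex that stands in for a mature miRNA (a mimic, of miR-146a, miR-29a or miR-7a) or a scramble mimic with no intended target, and either vehicle (VEH) or lipopolysaccharide (LPS, a bacterial membrane component that activates macrophages through TLR4) at 10 ng/ml for 24 h. The vehicle groups are VEH_scramble, VEH_miR-146a, VEH_miR-29a and VEH_miR-7a, and the LPS groups are LPS_scramble, LPS_miR-146a, LPS_miR-29a and LPS_miR-7a. The sample labels put LPS before transfection, while the study's methods put transfection first. All cells are of 1 cultured line. Within a condition the 3 mimics were compared with the same 4 scramble libraries, so these comparisons share their controls.

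The labels give the cell type as glioblastoma. None of the 7 glioma and astrocyte markers examined averaged 1 TMM CPM, and their summed level stayed at or below 2.13 TMM CPM in every library, while the 12 microglia and macrophage markers summed to between 2254 and 5211. The unit TMM CPM is the usual CPM, a count relative to its library total, with the totals scaled by the trimmed mean of M values (TMM). In the macrophage list C1qa and Cx3cr1 were near 0, with medians of 0.38 and 0.60 TMM CPM. Among 5 markers of mature osteoclasts, Atp6v0d2 and Ctsk had medians of 96.8 and 26.9 TMM CPM, whereas Calcr had a count in 6 and Car2 in 3 of the 32 libraries and Mmp9 had a median of 1.29. The RANK ligand gene Tnfsf11 had a count in 2 of the 8 groups, with means of at most 0.037 TMM CPM, and its decoy receptor Tnfrsf11b was at 0 in all of them. Cell fusion was not measured, and the 7 genes are called osteoclast-associated below.

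Library totals ranged from 1202580 to 21351670 restored counts, and 3 counts, taken as the floor of detection, correspond to 0.133 to 3.75 TMM CPM. Small structural RNA genes held 37.4% to 40.6% of the counts in VEH_miR-7a replicates 2, 3 and 4, 4.32% in its replicate 1 and 2.63% to 19.4% in the other 28 libraries.

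The mature sequences of the mimicked miRNAs, from RefSeq on GRCm38.p6, are shown because the seed (bases 2 to 8, in capitals) decides which mRNAs a miRNA can pair with.
miR-7a-5p: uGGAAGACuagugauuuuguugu
miR-29a-3p: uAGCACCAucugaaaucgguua
miR-146a-5p: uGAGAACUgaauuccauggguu
No pair of the 3 seeds is the same. In the 3′ UTRs of the annotated coding transcripts (GENCODE M21, GRCm38), the 7-base complement of the seed was searched for on the mRNA strand. It occurs in 11.93% of 21015 genes for miR-7a, 13.12% for miR-29a and 11.17% for miR-146a.

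Acp5 (3′ UTR of 293 bases) and Oscar (951 bases) hold no match for any of the 3 mimics. Dcstamp and Nfatc1 each hold 1 match for miR-7a. Itgb3, Ocstamp and Nfatc1 each hold 1 match for miR-29a, Ocstamp holds 1 and Tnfrsf11a 2 for miR-146a. The sites outside Nfatc1 are shown on the mRNA strand with the match in capitals, as the members that a mimic could pair with by its seed.
Dcstamp, miR-7a, chr15:39760570-39760598, plus strand: tttcagagtctGTCTTCCaaacaaaacac
Itgb3, miR-29a, chr11:104670080-104670108, plus strand: aatgaggcttgTGGTGCTtgggcggcaac
Ocstamp, miR-29a, chr2:165394065-165394093, minus strand: tccattgggggTGGTGCTatccctgggct
Ocstamp, miR-146a, chr2:165394280-165394308, minus strand: cttgagatgtgAGTTCTCagctactcttc
Tnfrsf11a, miR-146a, chr1:105846659-105846687, plus strand: agtaggatgacAGTTCTCtctctctcttt
Tnfrsf11a, miR-146a, chr1:105847298-105847326, plus strand: ctcctgactgaAGTTCTCctgtggttgta
A match is a stretch of letters and does not show that the site is used.

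The genes lie on 7 chromosomes of GRCm38 and are all protein-coding. Tnfrsf11a is at chr1:105780718-105847981 on the plus strand, with 10 exons, and Oscar at chr7:3609813-3616157 on the minus strand, with 5. Itgb3 is at chr11:104608000-104670476, plus strand, with 15 exons, and Nfatc1 at chr18:80606205-80713071, minus strand, with 10. Dcstamp is at chr15:39745930-39760938, plus strand, with 4 exons, and Ocstamp at chr2:165393760-165400405, minus strand, with 3. Acp5 is at chr9:22126727-22135711, minus strand, with 6 exons. Acp5 is overlapped on the opposite strand by 6530413G14Rik and Nfatc1 by AC123818.1. Whether the counting used strand is not given in the sources used here, so reads of these partners cannot be told apart from theirs.

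Per kilobase of exon, which allows genes to be compared, Ocstamp was the most abundant of the 7 in VEH_scramble, at 38.1 TMM CPM per kb, and Itgb3 the least, at 0.0687. Between them came Tnfrsf11a at 12.4, Nfatc1 at 8.18, Acp5 at 3.65, Oscar at 1.81 and Dcstamp at 1.07 TMM CPM per kb. In LPS_scramble the order was another. Acp5 led with 20.1 TMM CPM per kb, followed by Tnfrsf11a at 7.69, Nfatc1 at 5.46 and Ocstamp at 2.58, while Dcstamp (0.236), Oscar (0.223) and Itgb3 (0.0323) were lowest.

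**Figure D1:**
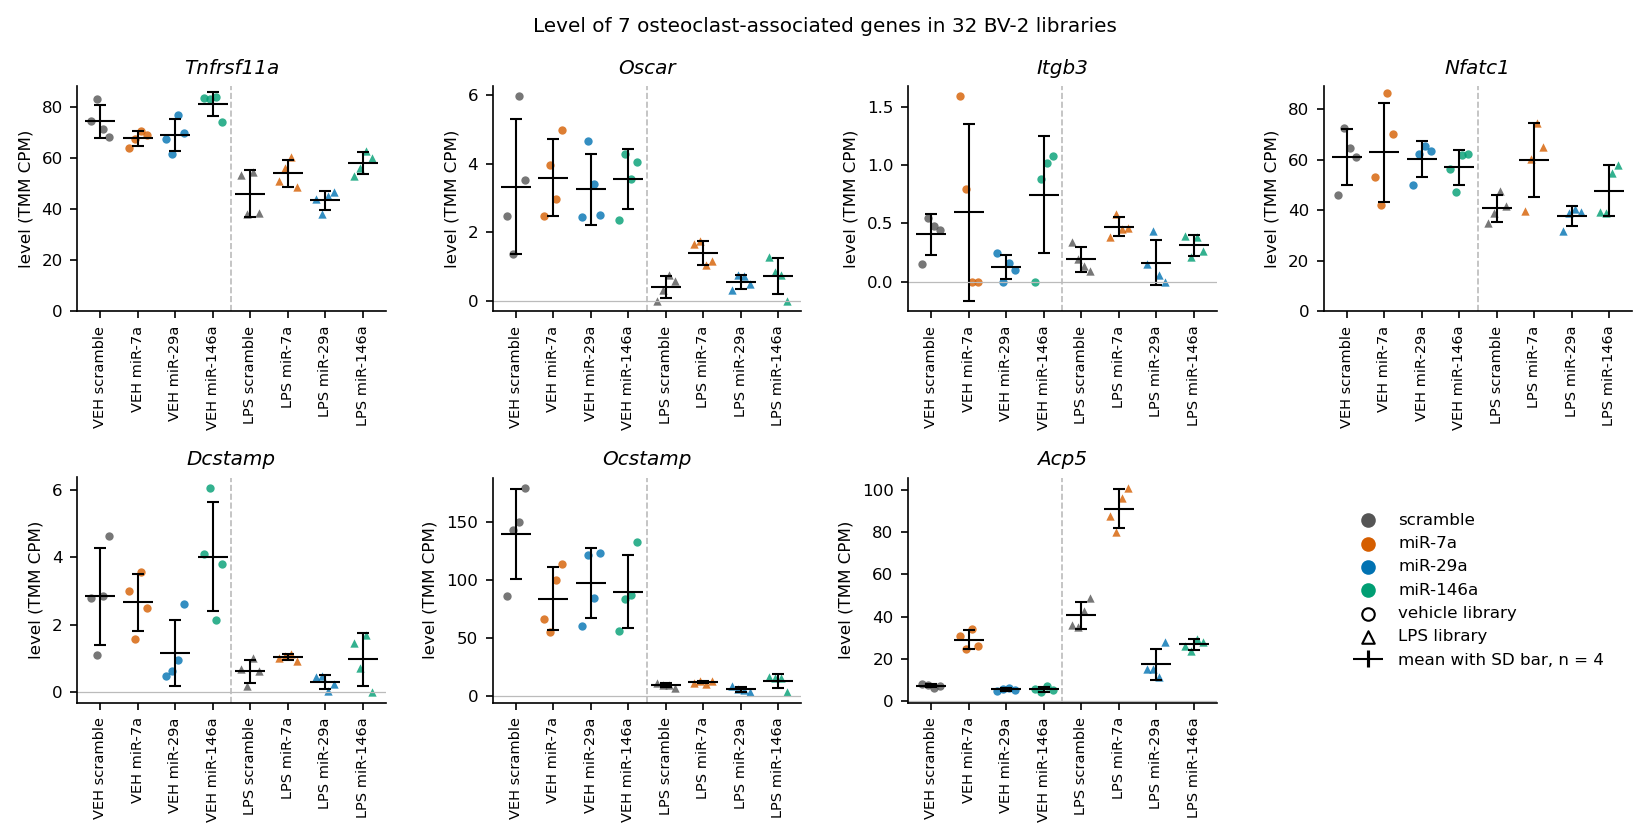
Level of each gene (TMM CPM, linear axis) in every library of the 8 groups, with circles for vehicle, triangles for LPS, colours for the mimic, and the mean with SD of 4 libraries in black. Ocstamp is high in all 16 vehicle libraries and at most 16.8 TMM CPM in all LPS libraries, while Acp5 is highest in LPS_miR-7a (79.8 to 100.9).

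Under LPS the fusion gene Ocstamp, the receptor genes Oscar and Tnfrsf11a and the transcription factor gene Nfatc1 fell in cells with the scramble mimic, and Acp5 rose. Of the 7 genes 5 passed the filter, and all 5 of these were called at a limma adjusted p below 0.05, 4 lower and 1 higher. This count is a description, as Oscar entered the test through its vehicle counts while Dcstamp and Itgb3 did not pass. The Nfatc1 call ended on leaving out 7 of the 8 libraries in turn. Of all 11917 genes tested 17.7% were called, 1113 higher and 998 lower. The difference of Ocstamp also exceeded the spread between libraries with each of the 3 active mimics, and that of Acp5 with miR-29a and miR-146a. The structural RNA share also differed, at 6.94% to 12.5% in VEH_scramble and 2.95% to 5.88% in LPS_scramble with no overlap. With the structural RNA genes left out 5 members were again called, with Ocstamp at -3.93 and Acp5 at 2.43. That fit only drops these genes, so the part of other differences in library composition or quality was not tested. In bulk RNA, fewer cells that express a gene and less RNA per cell cannot be told apart.

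Ocstamp encodes osteoclast stimulatory transmembrane protein, a multipass protein needed for fusion. Its level in the VEH_scramble libraries 1 to 4 was 86.2, 142.6, 149.4 and 179.1 TMM CPM, and in the LPS_scramble libraries 11.3, 9.84, 9.30 and 7.30. Every vehicle library lay above every LPS library, and the means differed 14.8-fold. The limma log2 fold change was -3.93 (SE 0.247, adjusted p = 6.04e-06). With the active mimics the vehicle libraries spanned 55.5 to 132.1 TMM CPM and the LPS libraries 3.26 to 16.8. Its log2 fold change was -2.72 (SE 0.218, limma adjusted p = 5.29e-05) with miR-7a, -4.09 (SE 0.310, limma adjusted p = 8.03e-06) with miR-29a and -2.78 (SE 0.343, limma adjusted p = 0.000929) with miR-146a. Ocstamp was therefore lower under LPS in 4 of 4 mimic backgrounds, with no overlap in any.

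Acp5 encodes tartrate-resistant acid phosphatase (TRAP), the lysosomal enzyme stained to identify osteoclasts, which macrophages also make. It stood at 8.06, 7.94, 6.45 and 7.16 TMM CPM in the VEH_scramble libraries and at 35.9, 35.3, 42.7 and 48.9 in the LPS_scramble libraries. All LPS libraries lay above all vehicle libraries, and the means differed 5.50-fold (log2 fold change 2.43, SE 0.194, limma adjusted p = 3.10e-05). The change was 1.46 (SE 0.319, limma adjusted p = 0.00635) with miR-29a and 2.22 (SE 0.235, limma adjusted p = 0.000422) with miR-146a. With miR-7a the LPS libraries (79.8 to 100.9 TMM CPM) also lay above the vehicle libraries (24.6 to 34.4), a 3.13-fold difference of means. The Acp5 level of these vehicle libraries was known when the genes were chosen, so this difference is given without a test.

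**Figure D2:**
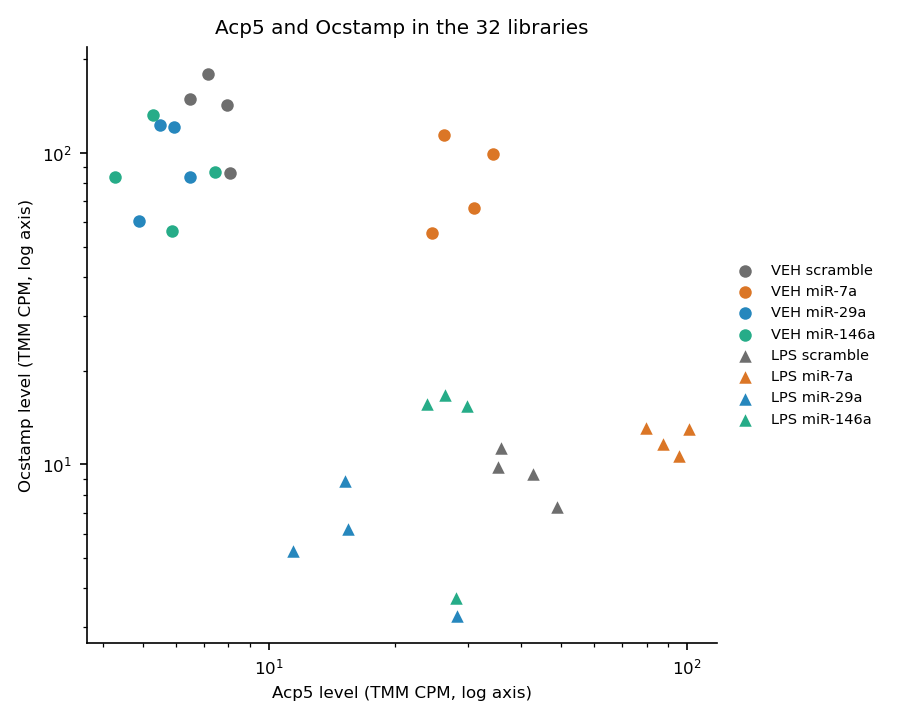
Acp5 against Ocstamp (TMM CPM, both axes logarithmic), 1 point per library, circles for vehicle and triangles for LPS. The vehicle libraries lie at the top, with Ocstamp between 55.5 and 179.1, and the LPS libraries at the bottom. Within each condition the miR-7a libraries lie farthest to the right, with Acp5 between 24.6 and 34.4 under vehicle and between 79.8 and 100.9 under LPS.

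Oscar, an immunoglobulin-like receptor for collagen, was detected at low level. Its restored counts were 16, 5, 25 and 32 in VEH_scramble (2.48, 1.37, 5.98 and 3.52 TMM CPM) and 0, 5, 11 and 13 in LPS_scramble (0, 0.326, 0.746 and 0.575 TMM CPM). The groups did not overlap, and the log2 fold change was -2.79 (SE 0.527, limma adjusted p = 0.00501). Because Oscar entered the test through its vehicle counts, its call is no support of its own. The difference was -2.31 with miR-29a (limma adjusted p = 0.00129) and -2.45 with miR-146a (limma adjusted p = 0.0372), and -1.27 with miR-7a, where it did not pass (limma adjusted p = 0.0985, and 0.0413 without the filter). The miR-146a call was lost on leaving out any 1 library except LPS_miR-146a replicate 4, a library with 0 Oscar counts. The adjusted p was then between 0.0676 and 0.104.

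Tnfrsf11a, which encodes the receptor RANK, stood between 38.1 and 83.7 TMM CPM in all 32 libraries. The VEH_scramble libraries had 74.5, 83.2, 71.5 and 68.3 TMM CPM and the LPS_scramble libraries 53.3, 38.1, 54.4 and 38.3. The groups did not overlap, with a log2 fold change of -0.75 (SE 0.164, limma adjusted p = 0.0106). It fell by 0.70 on the log2 scale with miR-29a (SE 0.131, limma adjusted p = 0.00284) and by 0.48 with miR-146a (SE 0.121, limma adjusted p = 0.0464). The last call was lost on leaving out each of the 8 libraries in turn, with adjusted p-values of 0.0563 to 0.162, and without the filter (0.182). With miR-7a the value was -0.35 (limma adjusted p = 0.188), and here too all LPS libraries (48.7 to 60.3) lay below all vehicle libraries (63.7 to 70.5).

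Nfatc1, the gene of the programme's master transcription factor, had 46.2, 72.8, 64.5 and 61.0 TMM CPM in VEH_scramble and 34.9, 38.9, 47.7 and 41.7 in LPS_scramble, with 1 vehicle library inside the LPS range. Its log2 fold change of -0.56 (SE 0.172, limma adjusted p = 0.0448) lay close to the threshold. Leaving out any 1 library except VEH_scramble replicate 1, the low vehicle library, ended the call, with values of -0.64 to -0.46 and adjusted p-values of 0.0520 to 0.109. It also ended without the filter (0.114) and with uncertain restored values kept (0.0504). With miR-29a it fell by 0.69 (SE 0.141, limma adjusted p = 0.00435), and with miR-7a and miR-146a the values were -0.06 and -0.30 (limma adjusted p = 0.930 and 0.393).

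Dcstamp encodes dendritic cell-specific transmembrane protein, the relative of Ocstamp that is also required for fusion. Its counts were 18, 4, 12 and 42 in VEH_scramble (2.79, 1.10, 2.87 and 4.62 TMM CPM) and 2, 3, 15 and 14 in LPS_scramble (0.684, 0.196, 1.02 and 0.620 TMM CPM). Every vehicle library lay above every LPS library, but the gene did not pass the filter. Without the filter its log2 fold change was -2.32 (limma adjusted p = 0.0106). With miR-146a, where it passed, the value was -1.95 (SE 0.686, limma adjusted p = 0.15), while DESeq2 (-1.93, adjusted p = 0.0286) and a limma fit of all 8 groups (-2.02, adjusted p = 0.0262) called it. Its counts there were 7, 41, 21 and 28 under vehicle and 15, 7, 18 and 0 under LPS. Because it was not tested for LPS in the other 3 backgrounds and was tested here with its higher vehicle counts, these calls are no support of their own.

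Itgb3, the beta-3 integrin chain of the osteoclast vitronectin receptor, never passed the filter. It had at most 10 counts in a library and 0 in 5 libraries, and its group means ran from 0.126 TMM CPM in VEH_miR-29a to 0.746 in VEH_miR-146a. These levels are near the floor of 3 counts. The LPS_miR-7a libraries (3, 6, 6 and 6 counts, mean 0.470 TMM CPM) lay above those of LPS_scramble (1, 3, 2 and 2 counts, mean 0.190), and without the filter this difference did not pass (limma adjusted p = 0.347).

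**Figure D3:**
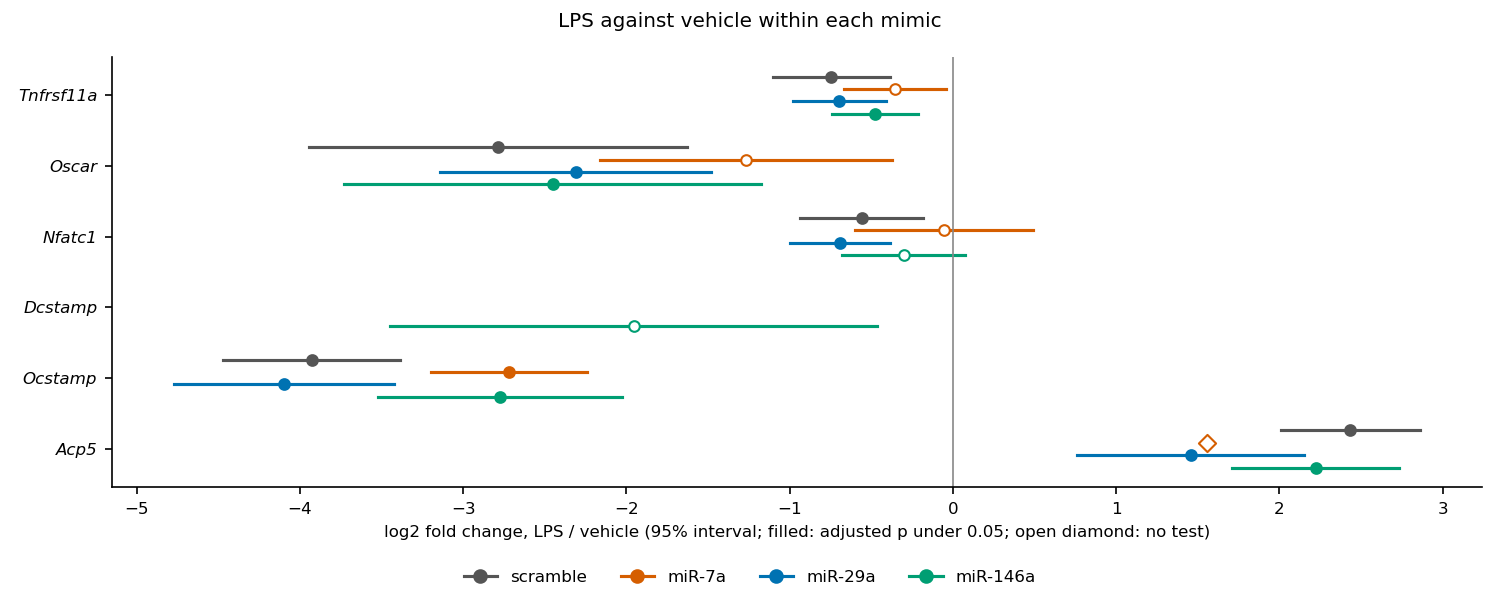
Limma log2 fold change of LPS over vehicle within each mimic, with 95% intervals. Filled points passed an adjusted p of 0.05, and combinations that did not pass the filter, and Itgb3, are not drawn. Ocstamp lies between -4.09 and -2.72 and Acp5 between 1.46 and 2.43, where the open diamond (Acp5 with miR-7a) is given without a test.

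The counts of called members in the other backgrounds were as follows. With miR-7a, leaving aside Acp5, 1 of 4 tested members was called (Ocstamp), where 6.36% of 11620 genes were. With miR-29a 5 of 5 were called (26.3% of 11960 genes), and with miR-146a 4 of 6 (4.47% of 11819 genes). Leaving out any 1 library gave 2 to 3 called members with miR-146a. Which of the members with low counts were tested depended on those counts, so these numbers are a description.

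Whether a mimic changed the response to LPS was asked by the interaction, the difference between the mimic effects under LPS and under vehicle. No member was called (0 of 6 tested for each mimic by limma), where 0.00854% of genes were for miR-7a, 0.0254% for miR-29a and 0.00844% for miR-146a. At an unadjusted p under 0.05, 2 of the 5 members other than Acp5 passed for miR-7a, where 635 of 11705 genes did, and of 6 members 1 for miR-29a (781 of 11826 genes) and 1 for miR-146a (1347 of 11855 genes). By both edgeR's quasi-likelihood test and DESeq2 0 members were called. For miR-7a the interaction was 1.23 for Ocstamp (95% interval 0.485 to 1.98, limma adjusted p = 0.490) and 1.42 for Oscar (0.0410 to 2.79, limma adjusted p = 0.888). That of Acp5, -0.87, uses the VEH_miR-7a libraries whose Acp5 level was known when the genes were chosen, and is given without a test. For miR-29a it was -0.98 for Acp5 (-1.77 to -0.184, limma adjusted p = 0.657), and for miR-146a 1.14 for Ocstamp (0.152 to 2.13, limma adjusted p = 0.394). The intervals are wide, and a difference between mimics in the LPS response of these genes is neither shown nor bounded closely.

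Against scramble Acp5 was higher with the miR-7a mimic in both conditions and lower with miR-29a under LPS. In the VEH_miR-7a libraries it had 31.0, 24.6, 34.4 and 26.3 TMM CPM, 3.92 times the VEH_scramble mean and above all 4 of those libraries. This difference was known when the genes were chosen and is given without a test. Replicate 1, with the low structural RNA share, lay inside the range of the other 3 libraries. In this comparison 6 members were tested and 0.0462% of 10823 genes were called. These 5 genes became 219 without VEH_miR-7a replicate 1 and 1 without VEH_scramble replicate 4. None of the other 5 members was called by limma. Of these Ocstamp had an unadjusted p under 0.05, with a log2 fold change of -0.80 (95% interval -1.40 to -0.201, limma adjusted p = 0.288).

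Under LPS the same direction was measured in other libraries. LPS_miR-7a had 87.4, 79.8, 95.9 and 100.9 TMM CPM of Acp5 against 35.3 to 48.9 in LPS_scramble, a log2 fold change of 1.13 (SE 0.141, limma adjusted p = 0.00413) with no overlap. It was the 1 member called of 6 tested, where 2.6% of 12668 genes were. This share rests on 329 genes, which became 64 to 357 on leaving out 1 library. Earlier results had Acp5 moving in opposite ways with miR-7a and miR-29a, so the Acp5 call is no support of its own. Oscar (1.66, 1.74, 1.06 and 1.16 TMM CPM) also lay above all LPS_scramble libraries, with a log2 fold change of 1.59 that did not pass (limma adjusted p = 0.0727). Under LPS it was tested against scramble with miR-7a only, through its LPS_miR-7a counts, so this value is no support of its own.

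Nfatc1 in LPS_miR-7a stood at 39.7, 60.2, 74.5 and 64.9 TMM CPM, 3 libraries above and 1 within the LPS_scramble range. Its log2 fold change of 0.50 did not pass (limma adjusted p = 0.185), but with the replicate number as a block it was 0.56 (limma adjusted p = 0.0145). Without LPS_miR-7a replicate 1 it was 0.66 (limma adjusted p = 0.0348). Dcstamp and Nfatc1, which hold a miR-7a seed match, were not called lower with miR-7a. Under vehicle Dcstamp differed by -0.01 (95% interval -1.10 to 1.08) and Nfatc1 by -0.02 (-0.535 to 0.501), and under LPS Dcstamp differed by 0.90 (-0.078 to 1.87). None of the 3 differences passed, and the intervals are wide. Under LPS Dcstamp was tested against scramble with miR-7a only, through its LPS_miR-7a counts, so that value cannot decide whether the mimic lowers it.

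The miR-29a mimic went with less Acp5 under LPS. LPS_miR-29a had 15.2, 15.4, 11.4 and 28.1 TMM CPM, all below the LPS_scramble libraries, with a log2 fold change of -1.36 (SE 0.230, limma adjusted p = 0.0119). It was the 1 member called of 4 tested (4.59% of 12929 genes were called). As earlier results had Acp5 moving in opposite ways with miR-7a and miR-29a, this call is no support of its own. Ocstamp had 8.84, 6.22, 5.28 and 3.26 TMM CPM and overlapped LPS_scramble. Its log2 fold change was -0.68 (SE 0.247, limma adjusted p = 0.143), and -0.75 with the replicate block (limma adjusted p = 0.0424). Under vehicle no member passed with miR-29a (0 of 6, where 0.0265% of 11335 genes did by limma), and Ocstamp and Dcstamp, at -0.55 and -1.26, had the values farthest from 0. Dcstamp was the 1 member whose limma p was below 0.05 before adjustment. Besides Ocstamp, the genes with a miR-29a seed match are Nfatc1 and Itgb3. Nfatc1 differed from scramble by -0.01 under vehicle (95% interval -0.404 to 0.375) and by -0.13 under LPS (-0.413 to 0.161). Itgb3, without the filter, differed by -1.14 under vehicle (-2.44 to 0.157) and by -0.31 under LPS (-1.88 to 1.26).

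With miR-146a no member passed the threshold. Under LPS 0 of 4 tested were called, where 2.21% of 12280 genes were, and under vehicle 0 of 6, where 1.57% of 11434 genes were. The last share rests on 179 genes, which became 1069 without VEH_scramble replicate 1 and 0 to 12 without any 1 of the other 7 libraries. The LPS share rests on 271 genes, which became 19 to 257 on leaving out 1 library. Acp5 in LPS_miR-146a (26.3, 23.8, 29.7 and 27.99 TMM CPM) lay below all LPS_scramble libraries, with a log2 fold change of -0.64 (SE 0.1496, limma adjusted p = 0.0534). With the replicate block it was -0.60 (limma adjusted p = 0.0163). DESeq2 (-0.61, adjusted p = 0.00895) and a limma fit of all 8 groups (-0.63, adjusted p = 0.0255) also called it. Without LPS_scramble replicate 2 the limma adjusted p was 0.0495.

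The genes with a miR-146a seed match are Tnfrsf11a and Ocstamp. Tnfrsf11a, with 2 matches, differed from scramble by 0.10 under vehicle (95% interval -0.201 to 0.394) and by 0.37 under LPS (0.0435 to 0.704). Ocstamp, with 1 match, differed by -0.63 under vehicle (-1.22 to -0.0340, limma adjusted p = 0.180), and without VEH_scramble replicate 1 by -0.85 (limma adjusted p = 0.0481). Under LPS it differed by 0.56 (limma adjusted p = 0.427), and by 0.84 (limma adjusted p = 0.0409) without LPS_miR-146a replicate 4, the library that stood apart at 3.73 TMM CPM.

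**Figure D4:**
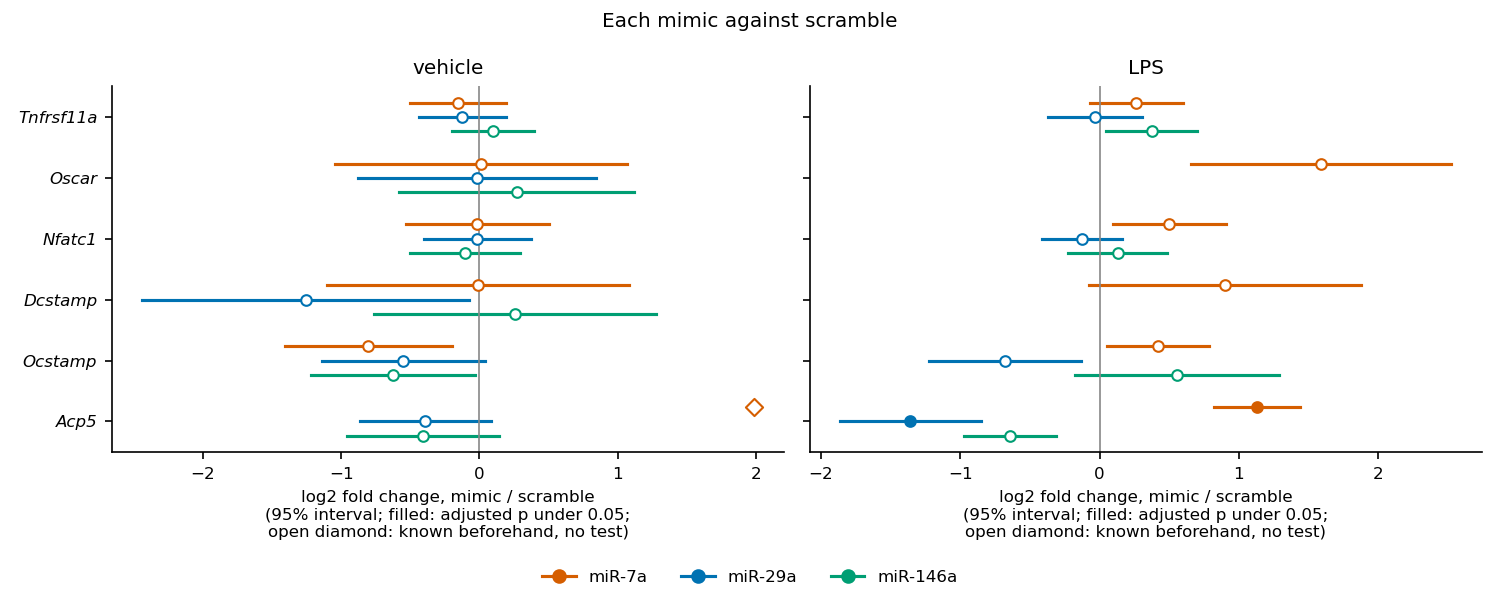
Limma log2 fold change of each mimic over scramble under vehicle (left) and LPS (right), with 95% intervals. Filled points passed an adjusted p of 0.05. The open diamond, Acp5 with miR-7a under vehicle (1.98), was known when the genes were chosen and has no test. Under LPS Acp5 is at 1.13 with miR-7a and at -1.36 with miR-29a, the 2 filled points.

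The miR-7a and miR-29a mimics were also compared with each other, which needs no scramble library. This pair was added because earlier results had Acp5 moving in opposite ways with them. The Acp5 call below is therefore a description and no support of its own. Under LPS Acp5 was 5.19 times as high with miR-7a, a log2 fold change of 2.49 (SE 0.224, limma adjusted p = 0.00036), and Ocstamp 2.05 times as high, with 1.11 (SE 0.238, limma adjusted p = 0.0256). These were the 2 members called of 6 tested (3.83% of 12543 genes), and no library of one group overlapped the other for either gene. The Ocstamp call was lost without LPS_miR-7a replicate 2, 3 or 4 or LPS_miR-29a replicate 3 or 4, at adjusted p-values of 0.0575 to 0.0883, and in a limma fit of all 8 groups (0.0731). Tnfrsf11a (0.31), Oscar (1.15) and Dcstamp (1.98) also had no overlap, but their limma adjusted p-values were 0.249, 0.099 and 0.0661. Oscar and Dcstamp were tested through their LPS_miR-7a counts, with counts down to 2 and 1 in LPS_miR-29a, so their values are no support. The share of all genes without overlap in this pair was not computed. Nfatc1, at 0.64 (limma adjusted p = 0.0981), overlapped, and without LPS_miR-7a replicate 1 it was 0.82 (adjusted p = 0.0115). DESeq2 (0.66, adjusted p = 0.0195) and a limma fit of all 8 groups (0.64, adjusted p = 0.0196) called it as well. Under vehicle Acp5 was 5.10 times as high with miR-7a in the libraries whose Acp5 level was known when the genes were chosen, so this too is a description. Of 10834 genes 1.25% were called there, and of the 4 other members tested limma called 0, with 0 at an unadjusted p under 0.05. That share rests on 135 genes, which became 9 to 335 on leaving out 1 library.

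Across all 8 groups Acp5 was ordered LPS_miR-7a (91.0 ± 9.32 TMM CPM, SD, n = 4), LPS_scramble (40.7 ± 6.40), VEH_miR-7a (29.04 ± 4.47), LPS_miR-146a (26.96 ± 2.52), LPS_miR-29a (17.5 ± 7.28), VEH_scramble (7.40 ± 0.747), VEH_miR-146a (5.71 ± 1.31) and VEH_miR-29a (5.70 ± 0.670). Neighbours in this order were separated without overlap at 3 of the 7 steps, namely the first, the second and that between LPS_miR-29a and VEH_scramble. Ocstamp was ordered from VEH_scramble (139.3 ± 38.8) through VEH_miR-29a, VEH_miR-146a and VEH_miR-7a (83.8 ± 27.4) to LPS_miR-146a (12.9 ± 6.12), LPS_miR-7a, LPS_scramble and LPS_miR-29a (5.90 ± 2.32). Its only step without overlap was that between vehicle and LPS, as it was for Tnfrsf11a and Oscar. No neighbours were separated for Nfatc1, Dcstamp and Itgb3. How often other genes show such steps was not counted, so these orders are a description.

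A list of 62 other names from osteoclast formation and resorption shows the rest of the pathway. Of these 60 were found in the table (Tm7sf4 is an older symbol of Dcstamp, and Lilrb4a was not found). In LPS_scramble against VEH_scramble 50 were tested, 6 rose and 8 fell, beside 17.7% of all genes called, with a median log2 fold change of -0.11 against 0.01 over all genes tested. Trem2, a lipid-sensing receptor, fell by 1.37 (limma adjusted p = 0.000341), and Atp6v0d2, a proton pump subunit that also takes part in fusion, by 1.41 (limma adjusted p = 0.0332). Pilra, an inhibitory receptor, rose by 1.81 (limma adjusted p = 0.00101), and Bcl6, a repressor of osteoclast genes, by 1.21 (limma adjusted p = 0.00137). Jdp2, an AP-1 family factor needed for osteoclast formation, rose by the same 1.21 (limma adjusted p = 0.0226).

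In LPS against vehicle with miR-29a 2 listed genes rose and 18 fell of 50 tested, where 26.3% of all genes were called (median -0.28 against 0.00 over all genes), led by Atp6v0d2 (-2.07), Slc4a2, the anion exchanger of the resorbing cell (-1.84), Trem2 (-1.68) and its ITAM adaptor Tyrobp (-1.27). With miR-7a 3 rose and 4 fell of 51, beside 6.36% of all genes called (median -0.06 against 0.02), and with miR-146a 4 rose and 6 fell of 51, beside 4.47% (median 0.01 against -0.00057). The called genes with the largest changes with miR-7a were Fos, an AP-1 subunit (1.69), Jdp2 (1.46), Tyrobp (-1.03) and Trem2 (-1.003), and with miR-146a Pilra (2.52), Atp6v0d2 (-1.73), Jdp2 (1.62) and Trem2 (-0.86). As the shares of all genes called differ too, these counts set no order between the mimics. Trem2, Tyrobp, Sirpa and Slc4a2 were called lower in all 4 backgrounds. The share of all genes called lower in all 4 was not computed, so this is a description.

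**Figure D5:**
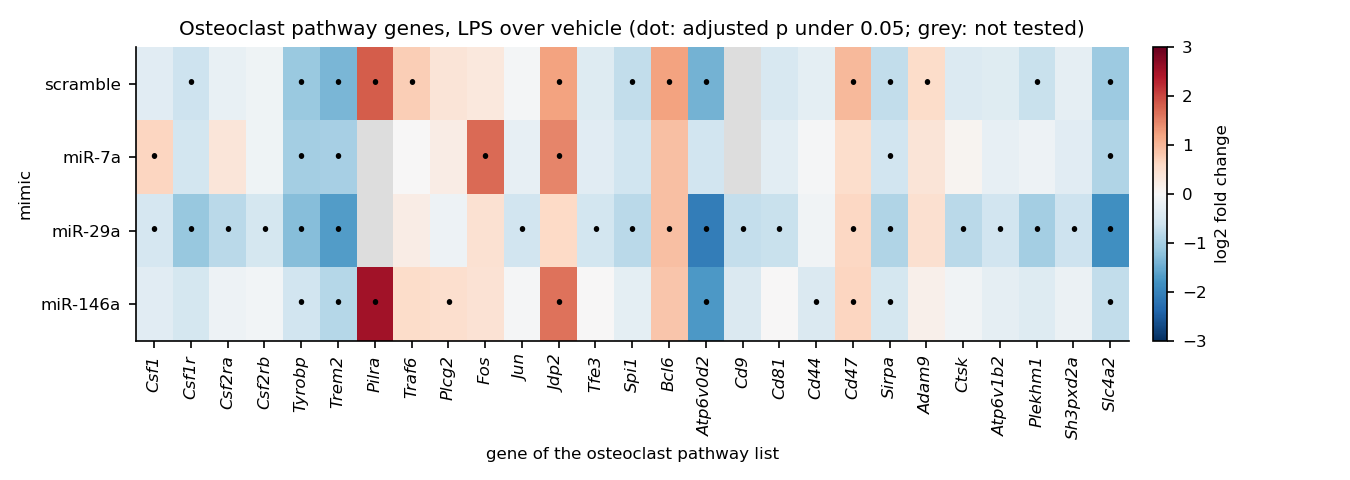
Limma log2 fold change of LPS over vehicle for the 27 listed genes called in at least 1 of the 4 mimic backgrounds, on a colour scale from -3 to 3, with a dot where the adjusted p was under 0.05 and grey where a gene was not tested. Trem2, Tyrobp, Sirpa and Slc4a2 are blue with a dot in every row, and miR-29a has the most dots, 20.

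Between mimic and scramble under LPS 4 of 53 listed genes tested were called with miR-7a, beside 2.6% of all genes (3 higher, 1 lower, median -0.08 against 0.01 over all genes), 6 of 54 with miR-29a, beside 4.59% (1 higher, 5 lower, median -0.19 against 0.01) and 0 of 53 with miR-146a by limma, beside 2.21% (median 0.17 against -0.03). With miR-7a the 4 were Clcn7, the chloride transporter of the resorbing cell (0.82, limma adjusted p = 0.0440), its partner subunit Ostm1 (0.62, limma adjusted p = 0.0250), the macrophage growth factor Csf1 (0.70, limma adjusted p = 0.0237) and the metalloprotease Adam9 (-0.73, limma adjusted p = 0.0181). Ctsk, the collagen-degrading protease of osteoclasts, fell by 2.05 with miR-29a (SE 0.186, limma adjusted p = 0.000635), from 35.4 ± 5.77 to 8.77 ± 1.43 TMM CPM (SD, n = 4). With miR-7a its value was -0.76 (limma adjusted p = 0.0676). Src, the kinase of the ruffled border, and Csf1r, the receptor of the macrophage growth factor, fell by 0.72 and 0.70 with miR-29a (limma adjusted p = 0.0165 and 0.0161), and Ostm1 rose by 0.59 (limma adjusted p = 0.0133). Under vehicle Ctsk was the only listed gene called with miR-29a (of 49 tested, beside 0.0265% of all genes). By limma none of 50 was called with miR-7a, beside 0.0462%, or with miR-146a, beside 1.57%.

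Between miR-7a and miR-29a under LPS 10 of 53 listed genes were called, beside 3.83% of all genes (median 0.19 against 0.00 over all genes). Of all genes called 304 were higher with miR-7a and 177 lower, and of the 10 listed ones 7 were higher and 3 lower. Among them Siglec15, an ITAM-coupled receptor of the fusion step, averaged 1.47 ± 0.396 TMM CPM in LPS_miR-7a and 0.177 ± 0.214 in LPS_miR-29a (SD, n = 4). The latter level is at the floor of 3 counts and the gene was tested through its miR-7a counts, so no fold is given. Atp6v0d2 differed by 1.94 (limma adjusted p = 0.0481), Src by 1.31 (limma adjusted p = 0.0131) and Ctsk by 1.30 (limma adjusted p = 0.0085). Acp5 and Ocstamp, the members called in the same comparison, were also higher with miR-7a, the commoner direction among all genes called. Under vehicle Fos was the 1 listed gene called of 49 tested, beside 1.25% of all genes, and its difference was -2.56 on the log2 scale (limma adjusted p = 0.0339).

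Genes whose pattern was most like that of a member were sought by Pearson's r of log2(TMM CPM + 0.5) over the 32 libraries. The libraries share treatment, mimic and depth, and fall into vehicle and LPS groups, so r is a description. Nearest to Ocstamp were Arsb (r = 0.936), Egr2 (0.936) and Trem2 (0.935), and nearest to Acp5 were Slc6a12 (0.944), C3 (0.894) and Ccna2 (0.852). Oscar was nearest to Rasl11b (0.897), Txnip (0.891) and Ocstamp itself (0.867). For Tnfrsf11a the nearest were Bcar3 (0.897), F13a1 (0.894) and Cd300a (0.893), for Nfatc1 Mfsd11 (0.866), Tgfb1 (0.853) and Ksr2 (0.849), and for Dcstamp Colec12 (0.846), Prcp (0.815) and Gm13889 (0.799). No member was among the 3 nearest to Acp5.

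Promoter windows (250 bases before to 50 after an annotated start, RefSeq on GRCm38.p6) were searched on both strands for the NFAT core GGAAAA (in 23.36% of 32851 promoters), the AP-1 motif TGANTCA (7.81%), the PU.1 core GAGGAAG (13.63%) and the M-box of MITF and TFE factors TCANGTGA (4.18%). Windows for 3 of the 7 genes were at hand. Tnfrsf11a had no match. Oscar had 2 NFAT cores and 1 PU.1 core. Of the 3 Acp5 starts the distal one had 1 NFAT core, the middle one none, and the one nearest the coding sequence 1 M-box. The Oscar window and this last Acp5 window are shown, as genes that moved in opposite directions under LPS, with the matches in capitals on the strand of the gene.
Oscar, chr7:3616108-3616407, minus strand: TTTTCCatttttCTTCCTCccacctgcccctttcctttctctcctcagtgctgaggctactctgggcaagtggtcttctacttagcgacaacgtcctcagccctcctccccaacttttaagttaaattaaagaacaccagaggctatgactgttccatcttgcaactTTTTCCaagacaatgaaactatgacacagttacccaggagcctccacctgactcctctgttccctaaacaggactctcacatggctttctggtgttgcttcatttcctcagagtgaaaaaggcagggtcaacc
Acp5, chr9:22130549-22130848, minus strand: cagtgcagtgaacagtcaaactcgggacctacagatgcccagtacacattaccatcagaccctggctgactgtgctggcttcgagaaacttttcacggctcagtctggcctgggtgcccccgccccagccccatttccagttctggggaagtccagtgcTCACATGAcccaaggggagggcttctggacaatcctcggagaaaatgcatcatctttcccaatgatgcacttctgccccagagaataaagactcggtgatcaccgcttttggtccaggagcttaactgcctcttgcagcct
The counts are per gene, so which Acp5 start was used in these cells was not measured. The matches are letters in a window and say nothing of binding.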

How the data were processed

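The authors deposited expected counts per gene for every library, made by the nf-core rnaseq workflow on GRCm38, after total RNA library preparation with ribosomal depletion. Per the labels' processing notes edgeR and limma were used, and the authors state filterByExpr, TMM and a design matrix for each pair of conditions. The decimal marks are lost in the deposited file. Of 109458 values of 20000 or more, 0.0155% end in 0. Each value was therefore read with 0 to 3 lost decimals by a model of the gene's level in its group, and a reading with a posterior under 0.9 was called uncertain (1.41% of values above 0). Genes with an uncertain value were left out of a comparison. Of the 224 values of the 7 genes 14 were given decimals, with a lowest posterior of 0.975. As a check, 9.6% of fractional readings had fewer than 3 decimals, where 10% would be expected.

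Comparisons used limma-voom (limma 3.58.1, edgeR 4.0.16, R 4.3.3) on 8 libraries, or 16 for interactions, with filterByExpr, TMM and Benjamini-Hochberg adjustment over all genes tested, called at an adjusted p under 0.05. Alternatives were edgeR's quasi-likelihood test and DESeq2 1.42.0 on rounded counts, other scaling, filters and restorations, a replicate block and leaving out each library. Scripts were tested on simulated data. Same-numbered libraries deviated together (every pair's correlation over 0.1) in 6 of the 12 pairwise comparisons: LPS against vehicle with scramble and with miR-29a, the 3 mimics against scramble under LPS, and miR-29a against scramble under vehicle. The labels do not say what a number shares, and the study calls replicates independent experiments. The p-values thus measure the spread between these libraries, which may be partly technical, and the floor of 3 counts covers counting error only. The 7 genes, the lists and the named genes (all members, per comparison at most 4 called listed genes with the largest changes, to which Jdp2 with scramble was added after its value was seen, and the 3 nearest patterns) were chosen with earlier results of these data known.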

Additional observations from a re-analysis of the deposited data

Results flagged for a closer look

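Of 56 sets of 4 libraries (7 genes in 8 groups), 2 had a library that stood apart from the other 3 by Dixon's criterion, which chance gives in about 1 of 20. Ocstamp was at 3.73 TMM CPM in LPS_miR-146a replicate 4, against 15.4 to 16.8 in the other 3 libraries. This library had a total count of 3611358 and 0 counts of Oscar and Dcstamp, while Acp5 (27.99 TMM CPM) and Tnfrsf11a (60.0) lay within the range of their group. Tnfrsf11a was at 74.2 TMM CPM in VEH_miR-146a replicate 4, against 83.1 to 83.7 in the other 3.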

How the results depend on the processing

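Calls of members were recomputed for all 15 comparisons under 11 settings and on leaving out each library. Median-of-ratios size factors, edgeR's quasi-likelihood test, a posterior minimum of 0.99, 1 set of library sizes in the restoration and leaving out structural RNA genes moved none of the 15 counts by more than 1.5 times. The calls of Ocstamp in LPS against vehicle and of Acp5 in comparisons without VEH_miR-7a were kept in all settings that used restored values. The counts that follow include Acp5 in comparisons with VEH_miR-7a, from which nothing is read. Values as deposited, without restored marks, called 2 instead of 5 members in LPS_scramble against VEH_scramble, 3 instead of 5 for LPS with miR-29a, 1 instead of 2 with miR-7a, 1 instead of 4 with miR-146a, and 0 instead of 1, 1 and 2 for miR-7a and miR-29a against scramble and for miR-7a against miR-29a under LPS. These values turned the sign of Tnfrsf11a, to 0.66 in LPS_scramble against VEH_scramble and to 1.71 with miR-146a, where lost marks inflate single values. With uncertain values kept 3 members were called in LPS_scramble against VEH_scramble instead of 5, and without the filter 4 instead of 2 for LPS with miR-7a (Oscar and Dcstamp added). The replicate block called 2 instead of 1 member for miR-7a and for miR-29a against scramble under LPS, 1 instead of 0 for miR-146a under LPS (as did DESeq2 and a fit of all 8 groups, each with 1) and under vehicle (Ocstamp, -0.69, limma adjusted p = 0.0361), and 2 instead of 4 for LPS with miR-146a, where it ended the calls of Tnfrsf11a (limma adjusted p = 0.0536) and Oscar (0.0715). In LPS_miR-7a against LPS_miR-29a it added Nfatc1 (0.66, limma adjusted p = 0.0121). It moved no other count by more than 1.5 times. The cause of these shifts was not tested. Leaving out 1 library gave 3 to 6 calls in LPS_scramble against VEH_scramble, 2 to 3 for LPS with miR-146a, 5 with miR-29a and 2 with miR-7a. Against scramble it gave 1 to 2 for miR-7a, 1 for miR-29a and 0 to 1 for miR-146a under LPS, and 0 to 1 for miR-7a, 0 for miR-29a and 0 to 1 for miR-146a under vehicle. Between miR-7a and miR-29a it gave 1 to 3 under LPS and 1 under vehicle, and 0 for each interaction. The pseudocount of 5 kept the nearest gene for 5 of 6 members. Depth limits Itgb3, whose counts lie near the floor of 3, and the LPS libraries of Dcstamp and Oscar with few or 0 counts.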
